A study of Mus musculus with 13 samples.

Results

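The 10 genes described here are small secreted protease inhibitors and their relatives: the WAP four-disulfide core genes Wfdc15a, Wfdc15b, Wfdc3, Wfdc6a, Wfdc6b, Wfdc9, Wfdc10 and Wfdc1, together with Eppin and Spint5. They were taken by gene symbol from the 30479 genes of an RNA-seq table, and all 10 were listed in it. The libraries came from mice at postnatal day 25 that were knockout (KO), heterozygous (Het) or wild type (WT) for Wfdc15a. Sorted round spermatids gave 3 KO, 2 Het and 2 WT libraries of 100 to 200 cells, and whole testis gave 3 KO, 1 Het and 2 WT libraries of 2 ng RNA. The labels do not describe the Wfdc15a allele, name no strain, and do not tell which libraries share an animal, so the p-values below speak of the spread between libraries, part of which may be technical.

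A WAP domain is a short fold held by disulfide bonds, and proteins built from it, such as secretory leukocyte protease inhibitor and elafin, block serine proteases and in several cases act on microbes. Most mouse genes of the family lie in a cluster on chromosome 2, where many are expressed in the male reproductive tract. Eppin carries a WAP domain beside a Kunitz domain, a second kind of serine protease inhibitor fold, and in humans its protein coats sperm and binds semenogelin. Sperm and their precursors make serine proteases of their own, among them acrosin in the acrosome.

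Of the 10 genes, 9 lay on chromosome 2 between 164198863 and 164745931 of mm10, a stretch of 547.1 kb that held 33 genes of the table. Wfdc1, whose product is known as ps20, lay apart on chromosome 8 from 119666365 to 119688222 on the plus strand. Wfdc15a occupied 164198863 to 164200130 on the minus strand in 3 exons, and Wfdc15b lay 14.3 kb away at 164214454 to 164221660, also on the minus strand. Wfdc6a (164579519 to 164585447, minus strand), Eppin (164588343 to 164593594, minus strand) and Wfdc6b (164613522 to 164618212, plus strand) followed. Further along were Wfdc9 (164649631 to 164656583, minus strand), Wfdc10 (164656046 to 164657368, plus strand), Spint5 (164715305 to 164718068, plus strand) and Wfdc3 (164731180 to 164745931, minus strand).

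Wfdc15a and Wfdc3 carried the 2 highest read levels among these genes by their mean over the 13 libraries and varied together, although Eppin and Wfdc1 were above both in the Het library and KO replicates 2 and 3 of testis. By contrast, Wfdc15b, the nearest neighbour of Wfdc15a, was close to silent. The stretches before the start sites of these 3 genes are therefore shown, from RefSeq on GRCm38.p6, 5′ to 3′ in the direction of transcription, with CpG dinucleotides in capitals and without bases that GENCODE M21 places in an exon. They cover chr2:164200131-164200367 (Wfdc15a), chr2:164221664-164221913 (Wfdc15b) and chr2:164743313-164743517 (Wfdc3), all on the minus strand. The Wfdc3 stretch lies inside the Wfdc3 span given above, since the RefSeq start site used is within that span.
Wfdc15a: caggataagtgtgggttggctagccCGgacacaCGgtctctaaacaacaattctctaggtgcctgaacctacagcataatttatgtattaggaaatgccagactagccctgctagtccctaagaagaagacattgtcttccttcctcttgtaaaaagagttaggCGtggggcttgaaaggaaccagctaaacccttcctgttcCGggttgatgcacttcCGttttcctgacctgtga
Wfdc15b: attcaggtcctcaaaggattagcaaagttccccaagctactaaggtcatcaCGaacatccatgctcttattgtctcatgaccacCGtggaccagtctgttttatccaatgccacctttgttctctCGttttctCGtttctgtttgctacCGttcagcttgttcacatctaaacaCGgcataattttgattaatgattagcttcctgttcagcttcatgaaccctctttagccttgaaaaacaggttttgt
Wfdc3: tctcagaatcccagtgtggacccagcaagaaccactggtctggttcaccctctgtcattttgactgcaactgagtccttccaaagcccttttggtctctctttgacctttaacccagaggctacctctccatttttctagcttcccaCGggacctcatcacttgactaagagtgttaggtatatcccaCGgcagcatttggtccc

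In the full 250 bases before the start site, Wfdc15a had 5 CpG, Wfdc15b had 6 and Wfdc3 had 2, where the median of 32817 promoters of the same length was 6. Thus 49.7%, 53.7% and 29.1% of all promoters held as few CpG as these 3, in that order. RefSeq gave a promoter for 9 of the 10 genes (10 windows), running from 250 bases before the start to 50 after it. The cAMP response element half-site, TGACG on either strand, was found in 2 of the 10 windows, those of Wfdc6a at -46 and Wfdc6b at -50 from the start, and in 20.79% of all promoters. The full palindromic element TGACGTCA, which contains the half-site, was in 0 of the 10 and in 1.79% of all. The TATA box letters TATAAA, on either strand, were in 0 of the 10 and in 13.62% of all. The Wfdc6a and Wfdc6b windows shared a block of 111 bases with 107 identical. That block lies inside the gene spans given above for both, since the RefSeq start sites used there are within those spans.

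Read depth and near copies limit some of these genes. Library totals ran from 10825690 to 20927428 reads in round spermatids and from 7375270 to 18438704 in testis. A rough upper bound for a count of 0, if reads are independent, is 3 reads. These stood for 0.143 to 0.407 RPM (reads scaled to each library's total), counting error only. Of the low recovered counts, 60.7% to 63.5% were even, so reads may not be independent and this floor may be too low. Wfdc6a and Wfdc6b transcripts were 92.1% identical over 811 bases, so their reads could be split between them and both values are uncertain. Wfdc6b also shared 105 exonic bases with Wfdc8 on the opposite strand, and the libraries do not record strand. Wfdc9 and Wfdc10 overlapped in span without a shared exonic base. Wfdc15a and Wfdc15b were 76.3% identical over 135 bases.

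The libraries stood apart in a way that splits the KO group. Along the first principal component (55.6% of the variance in round spermatids, 71.6% in testis), KO replicate 1 and both WT libraries lay on one side and KO replicates 2 and 3 and the Het libraries on the other. The labels record no batch. All Het libraries lay opposite all WT libraries, so Het against WT and this split cannot be told apart. Of the cell type markers, 9 of 15 for round spermatids were higher in round spermatids than in testis over the genotypes, where 8.7% of all genes were higher, and 7 of 8 Leydig cell markers, such as the steroid enzyme gene Cyp17a1 (log2 difference -3.87, SE 0.81, adjusted p = 0.0072), were lower, where 6.7% of all genes were. Of the other somatic lists 4 of 14 Sertoli, 3 of 9 stromal and peritubular, 0 of 9 leukocyte and 0 of 5 endothelial markers were lower. In WT alone 5 of 15 round spermatid markers were higher, where 1825 of all 20085 genes were. There 1 of 8 Leydig markers was lower, where 480 of all 20085 genes were. Stromal and peritubular markers summed to 3.15, 626 and 1072 RPM in KO round spermatids (lowest, median and highest), to 485 and 539 RPM in Het, and to 4.56 and 5.55 RPM in WT.

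**Figure D1:**
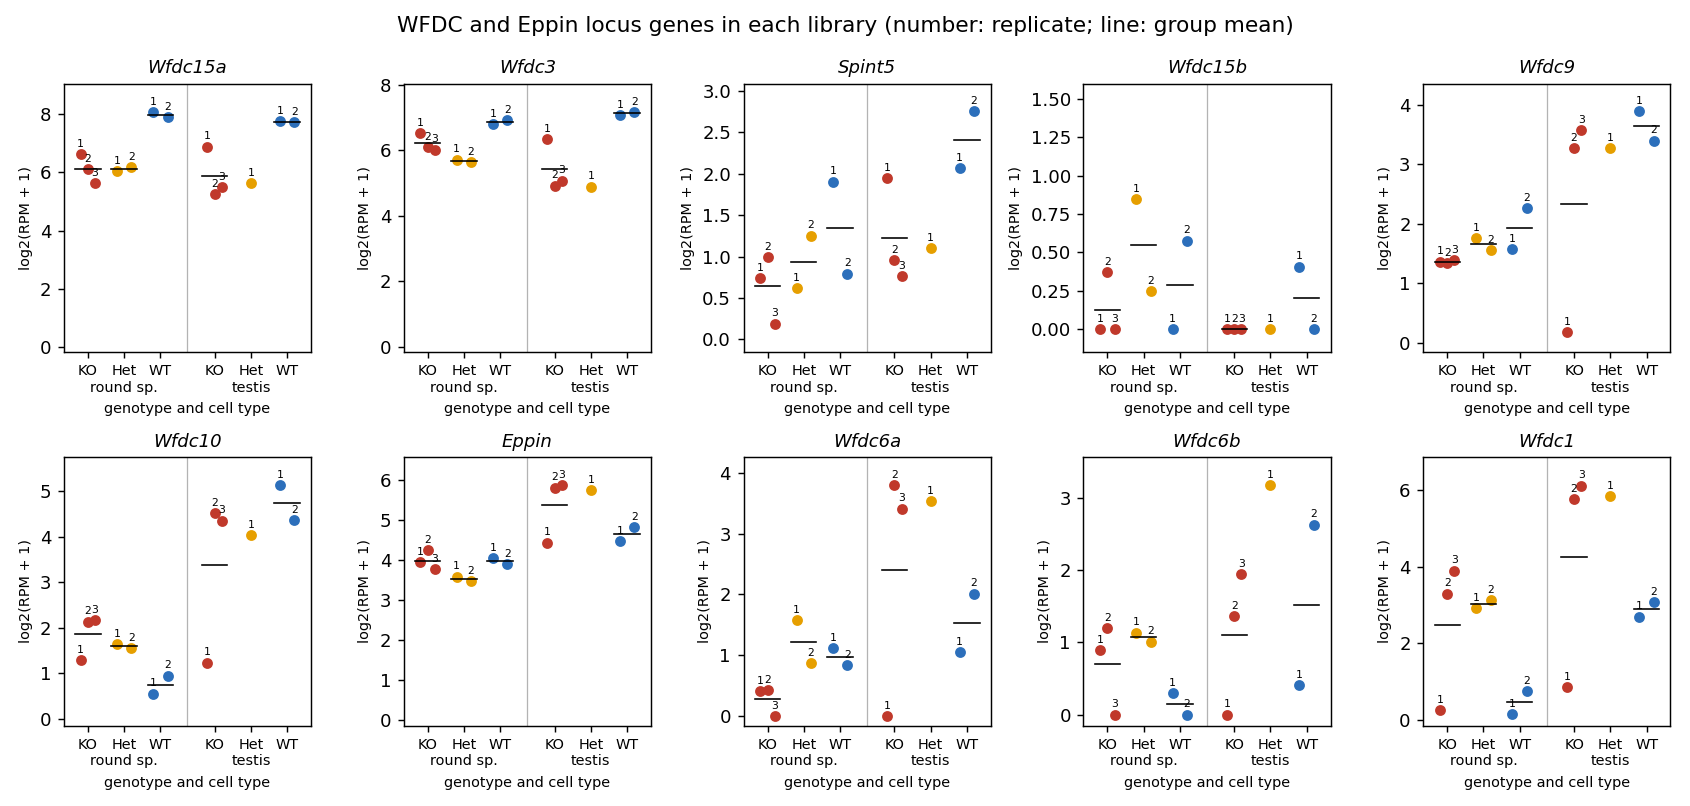
Level of each of the 10 genes as log2(RPM + 1) in every library, with round spermatids at the left and testis at the right of each panel. Points are libraries numbered by replicate, and lines are means of groups with more than 1 library. Wfdc15a and Wfdc3 were highest in WT in both cell types, Wfdc10 was higher in testis apart from KO replicate 1, and Wfdc1 was lowest in KO replicate 1 and WT.

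Wfdc15a, the gene altered in these mice, was lower in every KO and Het library than in any WT library, in both cell types, and yet was read in every KO library. In round spermatids it stood at 97.9, 67.4 and 48.1 RPM in KO, at 65.0 and 71.5 RPM in Het and at 267 and 234 RPM in WT. In testis it stood at 116, 36.8 and 44.3 RPM in KO, at 48.4 RPM in Het and at 212 and 207 RPM in WT. The KO libraries thus held 19.2% to 39.1% of the WT mean in round spermatids and 17.5% to 55.4% in testis, with KO replicate 1 the highest of its group in both.

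In the reported fit of each cell type, the difference of Wfdc15a did not pass an adjusted p of 0.05. KO minus WT on the log2(RPM + 1) scale was -1.86 in round spermatids (SE 0.28, limma adjusted p = 0.121) and -1.85 in testis (SE 0.55, adjusted p = 0.122). Het minus WT was -1.86 in round spermatids (SE 0.30, adjusted p = 0.0626) and -2.09 in testis (SE 0.74, adjusted p = 0.216). The exact two-sided permutation test of KO against WT gave p = 0.2 in both cell types, the smallest that 3 against 2 libraries allow. Without round spermatid KO replicate 1 the round spermatid value was -2.12 (SE 0.19, limma adjusted p = 3.8e-06). Without testis KO replicate 1 the testis value was -2.35 (SE 0.19, limma adjusted p = 0.000109). However, KO and WT then lie on opposite sides of the leading component, and 30.8% and 65.2% of all genes were called, in that order. With the side of that component as a covariate, so that only KO replicate 1 is set against WT, the values were -1.34 in round spermatids and -0.85 in testis. That fit has a single KO library beside WT, assumes that it varies like the other groups, and called 0.492% of all genes in round spermatids and 37.7% in testis.

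Wfdc3, a WAP gene 531 kb from Wfdc15a, followed nearly the same order of libraries. In round spermatids it stood at 91.3, 66.8 and 63.9 RPM in KO, at 51.4 and 48.9 RPM in Het and at 110 and 121 RPM in WT. Its testis levels were 79.7, 29.3 and 32.6 RPM in KO, 28.7 RPM in Het and 134 and 143 RPM in WT. Both WT libraries were the highest in each cell type, and the groups did not overlap. KO minus WT was -0.65 in round spermatids (SE 0.23, adjusted p = 0.162) and -1.69 in testis (SE 0.53, adjusted p = 0.133), and neither passed. Het minus WT was -1.19 (SE 0.25, adjusted p = 0.0626) and -2.24 (SE 0.71, adjusted p = 0.195). Pearson's r between Wfdc15a and Wfdc3 over the 13 libraries was 0.914, a description only, since libraries of one preparation and cell type share depth and cell makeup.

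Within a library, the ratio of Wfdc15a to Wfdc3 separated the genotypes in round spermatids. It was 1.07, 1.01 and 0.752 in KO, 1.26 and 1.46 in Het, and 2.42 and 1.95 in WT, so KO lay below Het and Het below WT without overlap, KO replicate 1 included. Wfdc15a itself overlapped between KO (48.1 to 97.9 RPM) and Het (65.0 to 71.5 RPM). Wfdc3, the denominator, was higher in every KO library (63.9 to 91.3 RPM) than in Het (48.9 to 51.4 RPM). The order of KO and Het is thus that of the ratio and not of the Wfdc15a level. The mean ratio was 0.944 ± 0.17 in KO (SD, n = 3), 1.36 ± 0.14 in Het (SD, n = 2) and 2.18 ± 0.33 in WT (SD, n = 2). Against Het and WT together the log2 ratio in KO was lower by 0.88 (exact two-sided permutation p = 0.0571, the smallest that 3 against 4 libraries allow). Among 18074 other genes tested in round spermatids, Wfdc15a included, 0.238% had a ratio to Wfdc3 in this order without overlap. In testis the ratio was 1.46, 1.26 and 1.36 in KO, 1.69 in Het, and 1.58 and 1.45 in WT, a range in which KO and WT overlapped. This ratio, its order and the pooling of Het with WT were chosen after the values were seen. The permutation p-value and the share of 0.238% are therefore descriptions only.

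**Figure D2:**
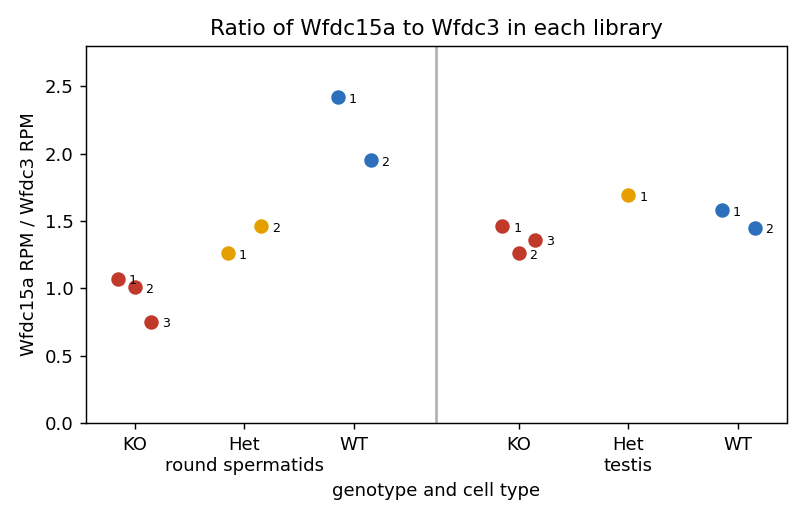
Ratio of Wfdc15a RPM to Wfdc3 RPM in each library, round spermatids at the left and testis at the right, with points numbered by replicate. In round spermatids KO libraries lay at 0.752 to 1.07, Het at 1.26 and 1.46, and WT at 1.95 and 2.42, while all testis libraries lay between 1.26 and 1.69.

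Among the genes whose levels were most like Wfdc15a over the 13 libraries, out of 9768 genes with a mean of at least 5 RPM, were Cadm2, a cell adhesion gene (r = 0.955), Kcnk2, a potassium channel gene (0.952), Saxo2 (0.951) and Ndufb1-ps (0.948). With each of these in place of Wfdc3, ratios also chosen after the data were seen, the log2 ratio of Wfdc15a in KO against Het and WT round spermatids was -0.44, -0.62, -0.39 and -0.60, in the order named. In testis the same log2 ratios were 0.13, -0.13, -0.10 and -0.48. In round spermatids the 3 genotypes were ordered without overlap against Cadm2 and Kcnk2, and were not against Saxo2 and Ndufb1-ps. Exact two-sided permutation p-values were 0.0571 for 3 of these 4 ratios and 0.114 for the ratio to Saxo2. The 4 genes were picked by their likeness to Wfdc15a in the same 13 libraries, so these p-values are no separate check. For Wfdc3 the most alike genes were Insl6, an insulin-like gene of germ cells, and the glucuronosyltransferase genes Ugt1a9 and Ugt1a8, which share exons (all r = 0.986).

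Spint5, a gene with a Kunitz domain alone, was lower in every KO and Het testis library than in any WT testis library. It stood at 2.85, 0.942 and 0.697 RPM in KO testis, at 1.15 RPM in Het and at 3.20 and 5.76 RPM in WT. In round spermatids it stood at 0.669, 0.996 and 0.142 RPM in KO, at 0.533 and 1.39 RPM in Het and at 2.75 and 0.736 RPM in WT. KO and WT did not overlap in testis and did in round spermatids. KO minus WT was -0.71 in round spermatids (SE 0.50, adjusted p = 0.424) and -1.19 in testis (SE 0.68, adjusted p = 0.33), and Het minus WT in testis was -1.31 (SE 0.91, adjusted p = 0.398). Wfdc15b had 29 reads in all over the 7 round spermatid libraries and 6 over the 6 testis libraries, at no more than 0.799 RPM, and was the only one of the 10 genes left untested by the requirement of at least 1 RPM in at least 2 libraries.

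Wfdc9 and Wfdc10, a pair of WAP genes in head-to-head overlap, had higher mean levels in testis than in round spermatids, and of the pair the difference of Wfdc10 passed. Wfdc10 stood at 1.43, 3.40 and 3.48 RPM in KO round spermatids, at 2.13 and 1.94 RPM in Het and at 0.467 and 0.932 RPM in WT. Testis held 1.36, 21.9 and 19.5 RPM in KO, 15.4 RPM in Het and 34.1 and 19.7 RPM in WT. Apart from KO replicate 1, every testis library was above every round spermatid library. In KO round spermatids it was higher than in WT in every library (1.11, SE 0.46, adjusted p = 0.212), while in testis KO minus WT was -1.38 (SE 1.11, adjusted p = 0.459); the difference between the 2 cell types was 2.49 (SE 1.24, adjusted p = 0.335).

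Wfdc10 was the only member whose difference between cell types passed in WT. Round spermatids minus testis was -4.0 in WT (SE 0.96, adjusted p = 0.0207), and it was the 1 of 9 tested members called there, where 11.5% of all 20085 genes were called. That call was lost without any single WT library of either cell type (-3.62 to -4.38, adjusted p from 0.0736 to 0.151), when 1 library stands for its group. Over the 3 genotypes Wfdc10 was lower in round spermatids, with a log2 difference of -2.49 (SE 0.58, adjusted p = 0.0119). The genes most like it over the libraries were Atp5pb, a subunit of mitochondrial ATP synthase (r = 0.980), the ribosomal protein gene Rpl4 (0.973) and Lypd11 (0.972).

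Wfdc9 stood at 1.58, 1.52 and 1.63 RPM in KO round spermatids, at 2.40 and 1.94 RPM in Het and at 1.99 and 3.83 RPM in WT. In testis it stood at 0.136, 8.63 and 10.9 RPM in KO, at 8.64 RPM in Het and at 13.8 and 9.57 RPM in WT. KO replicate 1 of testis was again the low library, at 1.16% of the WT mean and below every round spermatid library. For Wfdc9, round spermatids minus testis was -1.72 in WT (SE 0.94, adjusted p = 0.303) and -1.34 over the genotypes (SE 0.50, adjusted p = 0.0794), and neither passed. Without testis KO replicate 1 the value over the genotypes was -1.83 (adjusted p = 0.000375). Leaving out that library also called 7 of the 9 tested members and 38% of all genes. KO minus WT was -0.56 in round spermatids (SE 0.43, adjusted p = 0.466) and -1.30 in testis (SE 1.17, adjusted p = 0.505). The genes most like Wfdc9 were Nprl3 (r = 0.961), Sin3b (0.954) and Rfc5 (0.953).

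Eppin, whose protein coats sperm, was read in every library and was lower in round spermatids than in testis. It stood at 14.2, 17.9 and 12.5 RPM in KO round spermatids, at 10.9 and 10.1 RPM in Het and at 15.5 and 13.9 RPM in WT. In testis it stood at 20.5, 54.8 and 56.9 RPM in KO, at 52.2 RPM in Het and at 21.2 and 27.2 RPM in WT. The lowest testis library, KO replicate 1, was above the highest round spermatid library. Round spermatids minus testis over the genotypes was -1.34 (SE 0.32, adjusted p = 0.0134), and -0.68 in WT alone (SE 0.50, adjusted p = 0.472). The call over the genotypes was lost without the only Het testis library (-1.10, adjusted p = 0.0687). Eppin and Wfdc10 were thus 2 of 9 tested members called lower over the genotypes, where 6.7% of all genes were called lower, and 0 of 9 were called higher, where 8.7% of all genes were.

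Across genotypes Eppin in testis was split as the libraries were, with KO replicates 2 and 3 and Het at 52.2 to 56.9 RPM and KO replicate 1 and WT at 20.5 to 27.2 RPM. KO minus WT in testis was 0.71 (SE 0.59, adjusted p = 0.47) and Het minus WT was 1.09 (SE 0.79, adjusted p = 0.414), and both were below 0 when libraries were centred on their median or the side of the leading component was a covariate. With the covariate, Het is set against WT only through the KO libraries, of which KO replicate 1 alone lies beside WT. Sertoli cell markers summed to 29.4, 1839 and 1981 RPM in KO testis (lowest, median and highest), to 1736 RPM in Het and to 85.8 and 91.5 RPM in WT. In round spermatids the same markers summed to 17.1, 212 and 220 RPM in KO, to 85.3 and 91.8 RPM in Het and to 20.5 and 23.2 RPM in WT, where Eppin was no higher in Het than in WT (-0.45, SE 0.35, adjusted p = 0.442). Clusterin (Clu) belongs to this list and carried much of the testis sums of Het and KO replicates 2 and 3: without it the sums were 27, 681 and 778 RPM in KO testis, 587 RPM in Het and 68.3 and 75.2 RPM in WT. Other lists were also highest in Het and KO replicates 2 and 3 of testis, so Sertoli markers are not singled out. Meiotic spermatocyte markers summed to 1111, 3104 and 3337 RPM in KO testis, 3158 RPM in Het and 783 and 1039 RPM in WT. Leydig cell markers summed to 120, 585 and 803 RPM in KO testis, 842 RPM in Het and 42.6 and 51.8 RPM in WT. The part of any of these cells in the Eppin levels was not tested. In whole testis, fewer cells of a type and less RNA per cell cannot be told apart. The genes most like Eppin over the libraries were Abr (r = 0.947), the channel gene Pkd2l1 (0.944) and the adhesion gene Nectin2 (0.938).

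Wfdc6a and Wfdc6b, whose transcripts resemble Eppin's over part of their length, were low in round spermatids. Wfdc6a stood at 0.334, 0.352 and 0 RPM in KO round spermatids, at 2.00 and 0.831 RPM in Het and at 1.17 and 0.785 RPM in WT. In testis it stood at 0, 12.9 and 9.62 RPM in KO, at 10.6 RPM in Het and at 1.08 and 3.04 RPM in WT. The high testis libraries were those in which Eppin was high. KO minus WT in testis was 0.86 (SE 1.28, adjusted p = 0.687) and Het minus WT was 1.99 (SE 1.72, adjusted p = 0.481). Round spermatids minus testis over the genotypes was -1.66 (SE 0.56, adjusted p = 0.0564) for Wfdc6a and -1.07 (SE 0.44, adjusted p = 0.108) for Wfdc6b. Wfdc6b stood at 0.860, 1.29 and 0 RPM in KO round spermatids, at 1.20 and 1.02 RPM in Het and at 0.234 and 0 RPM in WT, and at 0, 1.57 and 2.85 RPM in KO testis, at 8.06 RPM in Het and at 0.325 and 5.19 RPM in WT.

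Wfdc1, the member outside the cluster and known from stroma of the prostate, ranged from 0.117 to 68.8 RPM over the 13 libraries. It stood at 0.191, 8.85 and 13.9 RPM in KO round spermatids, at 6.53 and 7.76 RPM in Het and at 0.117 and 0.687 RPM in WT. Its level in testis was 0.814, 53.7 and 68.8 RPM in KO, 56.4 RPM in Het and 5.48 and 7.47 RPM in WT. In both cell types KO replicates 2 and 3 and the Het libraries were above KO replicate 1 and the WT libraries. KO minus WT was 2.03 in round spermatids (SE 0.90, adjusted p = 0.231) and 1.36 in testis (SE 1.6, adjusted p = 0.607). Het minus WT was 2.56 (SE 0.98, adjusted p = 0.147) and 2.95 (SE 2.14, adjusted p = 0.414). All 4 turned negative with the side of the leading component as a covariate. In that fit KO replicate 1 is the only KO library beside WT, and Het is set against WT only through the KO libraries.

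The stromal and peritubular markers summed to 211, 950 and 1426 RPM in KO testis (lowest, median and highest), to 924 RPM in Het and to 25.7 and 28.4 RPM in WT. Sertoli, meiotic spermatocyte and Leydig marker sums, given above, were highest in the same testis libraries. The part of any of these cells in the Wfdc1 levels was not tested. All 9 stromal and peritubular markers had KO minus WT above 0 in testis, with 0 called. Most of the sum in KO replicate 1 of testis came from 4 matrix genes, Dcn, Col1a2, Col3a1 and Col1a1, at 72.95, 69.01, 41.76 and 18.17 RPM. The smooth muscle actin gene Acta2, on the same list and likewise named after its values were seen, stood at 0.271, 132 and 153 RPM in KO testis, at 123 RPM in Het and at 6.51 and 12.4 RPM in WT. The genes most like Wfdc1 were Itpa (r = 0.984), the pentose phosphate enzyme gene G6pdx (0.984) and Tuba1a, an alpha tubulin gene (0.983). For Wfdc1, round spermatids minus testis was -2.43 in WT (SE 1.57, adjusted p = 0.397) and -2.20 over the genotypes (SE 0.80, adjusted p = 0.0741).

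**Figure D3:**
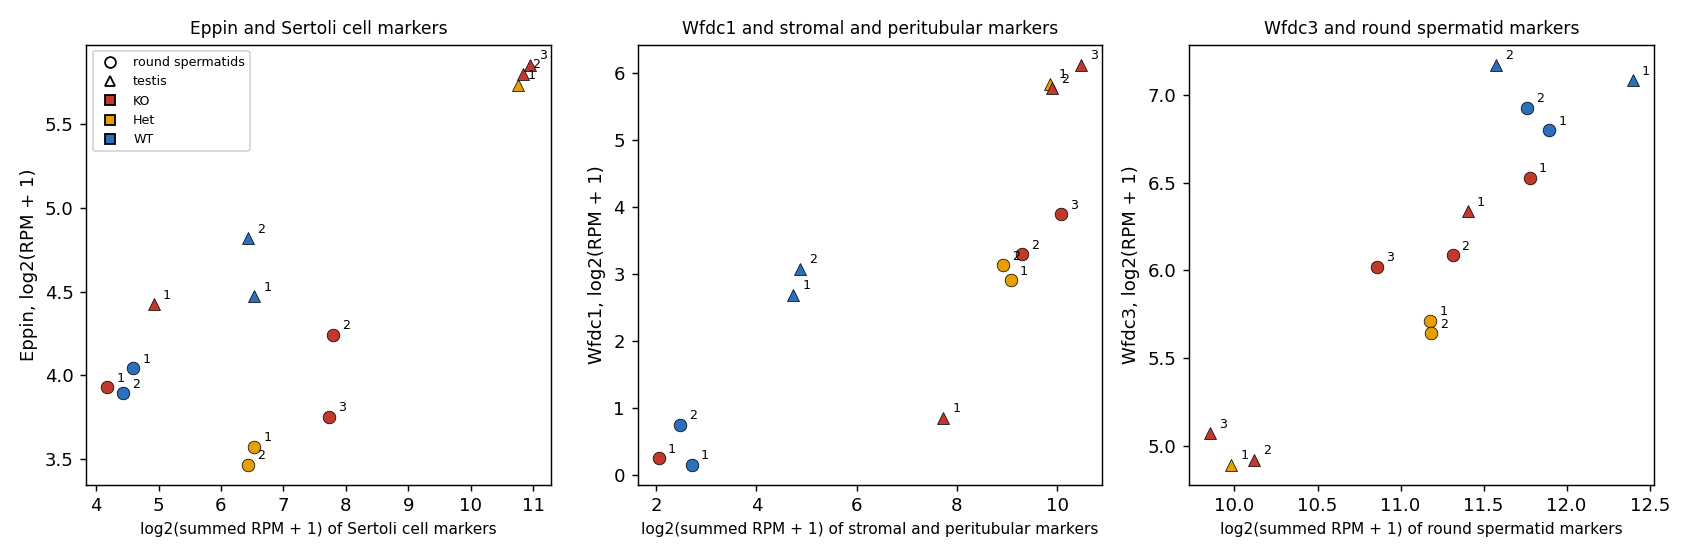
Level of Eppin, Wfdc1 and Wfdc3 (vertical, log2(RPM + 1)) against the summed level of Sertoli, stromal and peritubular, and round spermatid markers (horizontal, log2(summed RPM + 1)) in the 13 libraries. Circles are round spermatids, triangles are testis, and numbers are replicates. Eppin in testis was at 52.2 to 56.9 RPM in the 3 libraries with the most Sertoli marker reads. Wfdc1 was at 53.7 to 68.8 RPM in the same 3 libraries. On the stromal and peritubular axis, KO replicate 3 of round spermatids held 1072 RPM, with Wfdc1 at 13.9 RPM. That sum was above those of the Het testis library (924 RPM) and KO replicate 2 of testis (950 RPM).

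Taking all 9 tested members, 0 were called between genotypes in any of the 4 comparisons with WT, and 0% of all genes were called (0% for KO and for Het, in round spermatids and in testis). At an unadjusted p under 0.05 limma listed 4 members for KO and 3 for Het in round spermatids, and 2 for KO and 2 for Het in testis. Of all genes 21.1% and 25.1% in round spermatids and 23.6% and 19.8% in testis did so, in the same order, and voom on the recovered reads called 0 in each. The median of the members was -0.56 for KO and -0.26 for Het in round spermatids, where the median of all tested genes was 0.03 and 0.23. In testis it was -1.19 for KO and -0.38 for Het, where the median of all tested genes was 0.63 and 1.02. For the difference of the KO effect between the cell types 0 members passed, where 2.13% of all genes passed, and 0 were at an unadjusted p under 0.05, where 17.2% of all genes were. Without KO replicate 1 the count was 4 in round spermatids and 6 in testis for KO, and 3 and 5 for Het, where 30.8% and 65.2% of all genes were called for KO and 26.4% and 56.8% for Het.

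Groups were often apart without passing a test, and this was common among all genes. KO and WT did not overlap for 5 of the 9 members in round spermatids (1 higher, 4 lower), where 36% of all tested genes did not overlap, and for 3 in testis (all lower), where 42.3% did not. Het and WT did not overlap for 6 members in round spermatids (3 higher, 3 lower), where 63.9% of all genes did not, and for all 9 in testis (4 higher, 5 lower), where 89.8% did not, with a single Het library there. The KO effect on Wfdc3 was less negative in round spermatids by 1.03 (SE 0.56, adjusted p = 0.381).

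**Figure D4:**
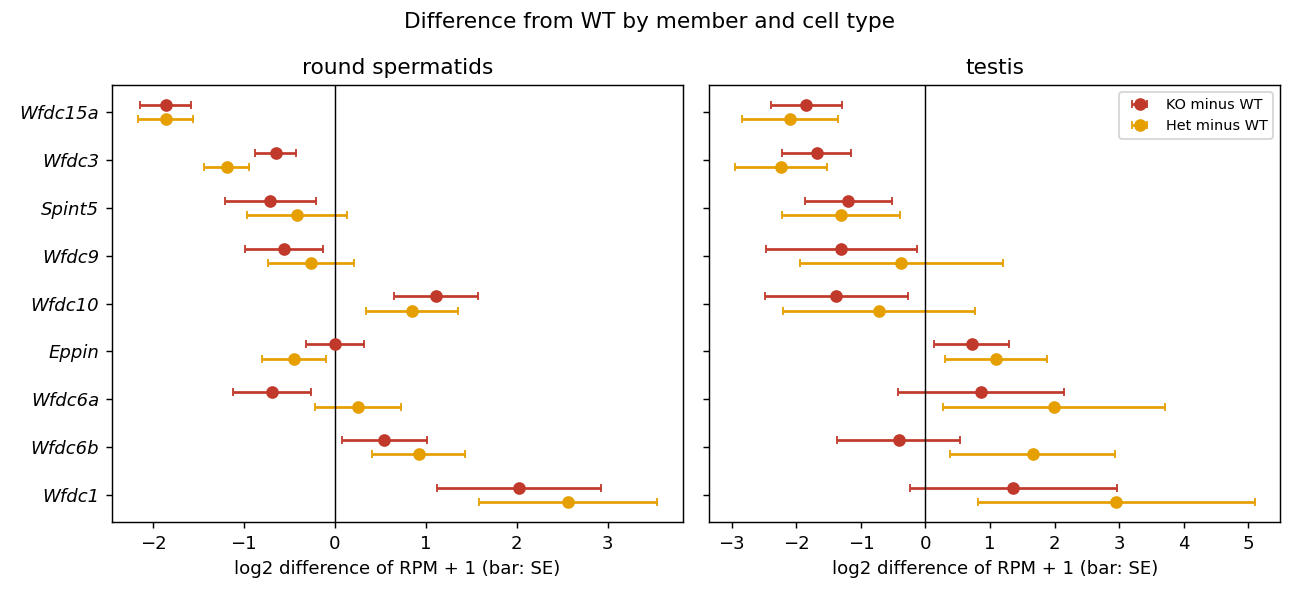
KO minus WT and Het minus WT in log2(RPM + 1) for the 9 tested members, in round spermatids at the left and testis at the right, with bars for 1 SE. Wfdc15a, Wfdc3, Spint5 and Wfdc9 lie left of 0 in all 4 comparisons and Wfdc1 right of 0 in all 4. Of the differences, 0 passed an adjusted p of 0.05.

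Per kilobase of exon, which allows genes to be set in order, Wfdc15a led in all 6 groups. It averaged 146 ± 51.5 RPKM in KO (SD, n = 3), 140 ± 9.41 in Het and 514 ± 46.7 in WT round spermatids (SD, n = 2 each). In testis it averaged 135 ± 89.9 RPKM in KO (SD, n = 3) and 430 ± 7.57 in WT (SD, n = 2), with 99.1 in the Het library. Wfdc3 came next in round spermatids, with 29.2 ± 5.94 in KO, 19.8 ± 0.713 in Het and 45.6 ± 2.87 in WT (SD, n as above), followed by Eppin with 19.1 ± 3.57, 13.5 ± 0.776 and 18.9 ± 1.45 in the same order. In testis the next places shifted: Eppin was second in KO (56.6 ± 26.3) and Het (67.1), while Wfdc10 (58.6 ± 22.1) and Wfdc3 (54.9 ± 2.44) followed Wfdc15a in WT and did not differ beyond their spread. All other members averaged under 10 RPKM in each round spermatid group.

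Between cell types, Wfdc15a and Wfdc3 were the members whose difference over the genotypes was above 0. Round spermatids minus testis for Wfdc15a was 0.30 over the genotypes (SE 0.27, adjusted p = 0.443) and 0.25 in WT (SE 0.49, adjusted p = 0.845), and for Wfdc3 it was 0.45 (SE 0.27, adjusted p = 0.26) and -0.27 (SE 0.43, adjusted p = 0.804). For Spint5 it was -0.65 over the genotypes (SE 0.33, adjusted p = 0.181). Round spermatid markers summed to 1853, 2544 and 3514 RPM in KO round spermatids (lowest, median and highest) and 3470 and 3809 RPM in WT, and to 923, 1110 and 2710 RPM in KO testis and 3046 and 5394 RPM in WT. Het libraries held 2319 and 2324 RPM of these markers in round spermatids and 1009 RPM in testis.

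**Figure D5:**
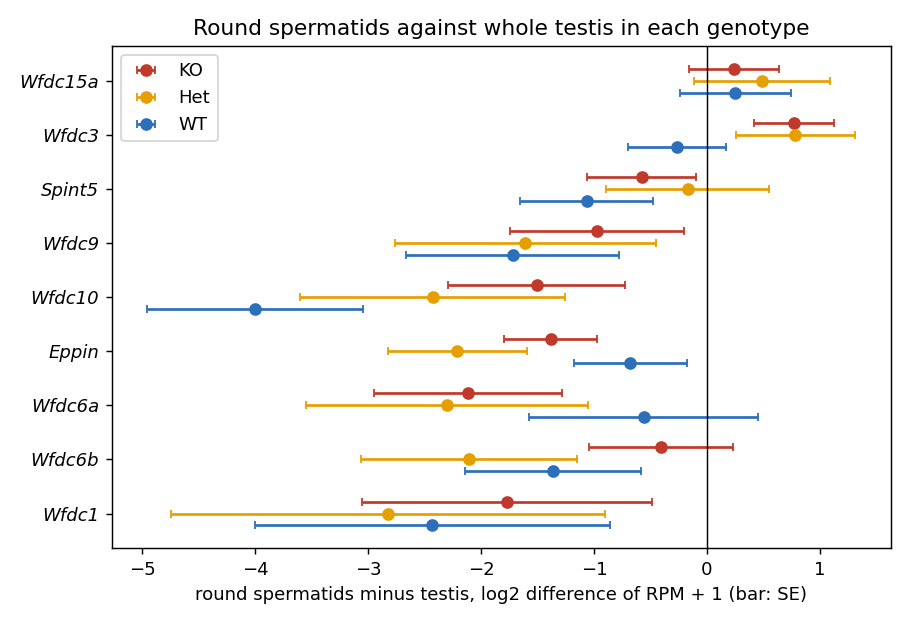
Round spermatids minus testis in log2(RPM + 1) for the 9 tested members in KO, Het and WT, with bars for 1 SE. Wfdc10 in WT lies farthest from 0, at -4.0, while Wfdc15a lies at 0.24 in KO, 0.49 in Het and 0.25 in WT.

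The rest of the WAP family was nearly unread: of 13 other WAP-domain genes, 4 exceeded 1 RPM in any library; 0 were tested for KO in round spermatids and 2 in testis, with 0 called. Of 12 other Kunitz-domain genes, 7 were tested in round spermatids and 8 in testis, with 0 called for KO. Their median KO minus WT was 0.54 and 1.59, beside 0.03 and 0.63 for all genes. The most abundant, the amyloid precursor-like gene Aplp2, stood at 27.2, 105 and 129 RPM in KO round spermatids and 35.5 and 27.2 RPM in WT, and at 29.0, 334 and 285 RPM in KO testis and 14.5 and 20.0 RPM in WT. Of 28 neighbours of the locus, 17 and 18 were tested, with 0 called for KO, and their medians of 0.08 and 0.74 were close to those of all genes. Dnttip1, the most abundant neighbour, stood at 57.7, 58.6 and 50.5 RPM in KO round spermatids, against 50.2 and 54.8 RPM in WT.

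Among possible partners, Clu, which binds EPPIN in human semen and is also one of the Sertoli markers above, stood at 1.63, 129 and 122 RPM in KO round spermatids and 2.1 and 1.62 RPM in WT, and at 2.44, 1159 and 1204 RPM in KO testis and 16.3 and 17.5 RPM in WT. The other 2 listed partners, Ltf and Svs2, were at no more than 0.527 RPM. Of 27 testis serine proteases, 24 were tested in round spermatids and 25 in testis, with 0 called for KO and medians of 0.04 and -0.29. The protease gene Prss39 stood at 658, 382 and 352 RPM in KO round spermatids and 596 and 638 RPM in WT, and at 448, 154 and 138 RPM in KO testis and 823 and 682 RPM in WT. Acrosin (Acr) stood at 311, 288 and 274 RPM in KO round spermatids and 224 and 261 RPM in WT. For KO against WT, kallikrein-family genes were tested in testis alone (4 of 16), with 0 called. Over the genotypes 2 of the 4 tested were called lower in round spermatids than in testis, where 6.7% of all genes were. The 16 genes were low, summing to 0.35 to 3.12 RPM in round spermatids and 2.03 to 11.1 RPM in testis.

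For the remaining markers the median KO minus WT in testis was -0.51 for round spermatid, 1.81 for meiotic spermatocyte, 2.40 for Sertoli, 2.30 for Leydig, 3.86 for stromal and peritubular, 1.67 for leukocyte and 1.20 for endothelial markers, with 0 called in each. In round spermatids the medians were -0.35, 0.66, 0.98, 1.40, 3.13, 0.54 and -0.72 in the same order, again with 0 called. Epididymal epithelium is a main site of Eppin and of many genes of the cluster. Its 12 listed markers summed to 15.8 to 23.1 RPM in KO and 16.0 to 18.8 RPM in WT round spermatids. In testis they summed to 0.271 to 8.87 RPM in KO and 8.68 to 13.2 RPM in WT, and 4 of the 12 exceeded 1 RPM in any testis library. All 3 tested were higher in round spermatids than in testis over the genotypes (median 1.34), and 1 was called, where 8.7% of all genes were called higher. The source of these reads was not tested.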

How the data were processed

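RNA was measured by Smart-seq2, which does not record strand, in 7 round spermatid and 6 testis libraries. Per the submitters' processing notes, the processing named mm10 and the tools HISAT2 2.1.0, Trim Galore 0.6.6 and FastQC 0.11.8; which program counted reads, and on which annotation, is not given in the sources here. The deposited values are log2 RPM, and genes at each library's lowest value were taken as 0 reads (0.9 read in the deposited scale). Reads recovered from the steps between low values were whole within 0.01 read for 99.797% to 99.997% of values.

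A gene entered a fit if 2 or more of its libraries reached 1 RPM. Tests used limma 3.58.1 (lmFit and eBayes with trend) in R 4.3.3 on log2(RPM + 1), which makes changes of low genes look smaller; p-values are two-sided, Benjamini-Hochberg adjusted over every gene of the fit, and called under 0.05. Each cell type was fitted apart; comparisons between cell types used all 13 libraries. Single values used exact permutation (scipy 1.17.1). Transcripts were compared with BLAST+ 2.17.0. Coordinates are those of the table; exons and lengths came from GENCODE M21, in which 96.82% of symbols were found. Replicate numbers were not taken as pairs. Alternatives are listed in the closing section.

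Named genes were all 10 members, at most 4 per list by highest mean RPM, and the 5 (Wfdc15a) or 3 (other members with a mean of at least 5 RPM) most correlated genes. A gene that this rule would name is not reported here. Members and the 14 gene lists were chosen with earlier results of these data known. The unit is not a count, so limma on log2 values was used and voom on recovered reads was an alternative.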

Additional observations from a re-analysis of the deposited data

Results flagged for a closer look

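Wfdc10 differed from WT in opposite directions in the 2 cell types in Het mice. It was higher in both Het round spermatid libraries than in WT and lower in the Het testis library than in WT. The difference of the Het effect, round spermatids minus testis, was 1.57 on the log2 scale (SE 1.51, limma adjusted p = 0.673), so the test of the difference did not pass.

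Eppin differed the other way round. It was lower in both Het round spermatid libraries than in WT and higher in the Het testis library than in WT, and the difference of the Het effect was -1.53 (SE 0.79, adjusted p = 0.461), which did not pass. Testis has a single Het library, and the Het and WT libraries lie on opposite sides of the leading component in both cell types.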

How the results depend on the processing

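Alternatives were the deposited log2 scale, a pseudocount of 0.1 RPM, a filter at a mean of 5 RPM or none, centred or quantile-normalized libraries, voom, library quality weights, one fit of all libraries, the side of the leading component as a covariate, a replicate block, and leaving out each library. Of 138 recomputed counts of called members 103 stayed within 1.5 times the reported count. For KO against WT in testis (reported 0), quality weights called 6 (67.5% of all genes), one fit of all libraries 2 (20.7%), the covariate 5 (37.7%), and leaving out libraries 0 to 6 (0% to 65.2%). In round spermatids (reported 0) weights called 4 (31.6%), the covariate 1 (0.492%) and leave-outs 0 to 4 (0% to 30.8%). For Het against WT in testis (reported 0), weights called 6 (57.3%), one fit 2 (14.5%), the covariate 3 (19.2%) and leave-outs 0 to 5 (0% to 56.8%); in round spermatids (reported 0) centring called 2 (2.43%), quantile normalization 2 (4.63%), weights 3 (26.6%), the replicate block 3 (8.79%) and leave-outs 0 to 3 (0% to 26.4%). For round spermatids against testis in WT (reported 1), quantile normalization called 2 (9.25%), weights 3 (31%), the covariate 3 (37.2%), the replicate block 2 (13.5%) and leave-outs 0 to 2 (3.37% to 29.8%). Over the genotypes (reported 2), centring called 4 (22%), quantile normalization 5 (20.2%), weights 8 (58.3%), the covariate 5 (30.5%) and leave-outs 1 to 7 (8.12% to 38%). For the difference of the KO effect (reported 0), weights called 3 (34.6%), the covariate 2 (26.3%) and leave-outs 0 to 3 (0% to 31.1%). Among the leave-outs, the highest counts came without testis KO replicate 1 (6 for KO and 5 for Het in testis, 7 over the genotypes, 2 in WT between cell types and 3 for the difference), and without round spermatid KO replicate 1 for that cell type.

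Values that changed sign were these. With the covariate, KO minus WT in testis was -1.54 for Wfdc6a, -2.03 for Wfdc1 and -0.22 for Eppin, and -0.20 for Wfdc1 in round spermatids. With it, Het minus WT in testis was -1.61 for Wfdc6a, -2.14 for Wfdc1 and -0.32 for Eppin, and -0.017 for Wfdc10 and -0.78 for Wfdc1 in round spermatids. Centred libraries gave KO minus WT in testis of -0.080 for Wfdc6a and -0.23 for Eppin, Het minus WT of -0.31 for Eppin in testis, and round spermatids minus testis in WT of -0.095 for Wfdc15a; quantile normalization gave -0.055 for Eppin in KO testis. The covariate's KO values rest on KO replicate 1 alone. Its Het values also rest on that library, since Het is then set against WT only through the KO libraries on either side. The cause was not tested.

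Replicate numbers were not treated as pairs, since not every pair had a correlation above 0.1: the correlation of deviations between testis and round spermatid libraries of the same number was -0.023 for WT and 0.283 to 0.504 for KO, and 0.003 to 0.046 between KO and WT. KO replicate 2 of testis was closer to KO replicate 3 of round spermatids (0.345) than to its own number. The replicate block left 0 members called between KO and WT (0.819% of all genes in testis, 0% in round spermatids), and added Wfdc1 to the calls between cell types, in WT and over the genotypes. Genes near 3 reads (0.143 to 0.407 RPM), such as Wfdc15b, are limited by depth. In round spermatids Wfdc6a had 0 to 30 reads and Wfdc6b 0 to 22 reads, mostly above that floor but low.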
